A study of Homo sapiens with 4 samples.

Results

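A group of 10 genes of the chromosome bands 8q12 to 8q13 was followed here in RNA sequencing data from MM134 cells, an estrogen receptor positive line of invasive lobular breast carcinoma. The genes were SGK3, MYBL1, NSMAF, VCPIP1, COPS5, CSPP1, ARFGEF1, TOX, SDCBP and UBXN2B, matched by symbol in the deposited tables, which list 60675 genes. They make up 10 of those genes, and 9 of the 16538 genes that were expressed highly enough to be tested, since TOX had no counts. They were chosen with earlier results on these libraries in view, among them the differences between the lines, so their values in that comparison are a description and support nothing further. The question asked of them was whether lower levels were a feature of the locus or of single genes.

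One line carried wild-type HER2 (HER2 WT) and the other HER2 L755S, in which 1 residue of the kinase domain of this ERBB2-encoded receptor is substituted. Cells of both lines were grown to 70% confluence and then kept without estrogen for 7 days in phenol red free medium with 5% charcoal-stripped serum, so estrogen deprivation was common to all samples. Each line had 2 libraries, numbered 1 and 2. The sources used here do not say how HER2 was altered, or whether a line was 1 clone. Separate cultures are not stated for the libraries of a line, so p-values reflect the spread between these 4 libraries only, and that spread may be technical. Each difference between the lines is also shown for the number 1 libraries alone (pair 1) and for the number 2 libraries alone (pair 2), always as HER2 L755S against HER2 WT. Below, the wild-type libraries and the L755S libraries are listed in the order 1 and 2.

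The total expected count, RSEM's estimate of the reads of each gene, was 27423247 to 31088422 per library. All 6 luminal epithelial markers (ESR1, GATA3, FOXA1, KRT8, KRT18 and EPCAM) were present in every library, with a summed level of 3398 to 4019 CPM (counts scaled to the library total with TMM factors). The 5 leukocyte markers summed to 0 to 0.834 CPM, with 2 of them at 0 throughout. Of the 5 markers of fibroblasts and endothelium, which summed to 52.8 to 115 CPM, nearly all of the level was COL1A1, and PECAM1 was at 0.

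The 10 genes belong to no single pathway, and share only their neighbourhood. SGK3 encodes a kinase of the AKT-related SGK family that is recruited to endosomes by its lipid-binding PX domain, is activated by PDK1 and is known as an estrogen-induced gene in breast cancer cells. MYBL1 (A-MYB) and TOX encode DNA-binding proteins. NSMAF, also called FAN, couples the TNF receptor to neutral sphingomyelinase, and its neighbour SDCBP encodes syntenin, a PDZ adaptor of syndecans and exosomes. UBXN2B and VCPIP1 act with the ATPase VCP/p97 in Golgi assembly. COPS5 is the catalytic subunit of the COP9 signalosome, which removes NEDD8 from cullins. CSPP1 is a protein of centrosomes, spindles and cilia, and ARFGEF1 activates ARF GTPases at the trans-Golgi. The long arm of chromosome 8, 8q, is often gained in breast cancer.

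The genes lie in 2 clusters (GRCh38, GENCODE 29). The proximal cluster, with UBXN2B, SDCBP, NSMAF and TOX, runs from 58411264 to 59119208 on chromosome 8, or 0.708 Mb. The distal cluster, with MYBL1, VCPIP1, SGK3, COPS5, CSPP1 and ARFGEF1, runs from 66562175 to 67343677, or 0.782 Mb, and 7.44 Mb separate the clusters. Within the distal cluster, COPS5 (minus strand) overlaps CSPP1 (plus strand) by 21358 bases and CSPP1 overlaps ARFGEF1 (minus strand) by 22753 bases. The sources used here do not say whether counting used strand, and reads in those overlaps may be mixed.

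SDCBP and NSMAF, which lie tail to tail with 643 bases between them, had the lowest levels relative to HER2 WT among the 10 genes. NSMAF (ENSG00000035681, 58583504 to 58659844) stood at 6.64 and 9.78 CPM in the wild-type libraries, against 0.479 and 0 CPM in the L755S libraries, which are 215, 284, 14 and 0 counts. SDCBP (ENSG00000137575, 58552924 to 58582860) stood at 4.05, 3.82, 0.274 and 0.0389 CPM in the same order, or 131, 111, 8 and 1 counts. For both genes the HER2 L755S libraries lay far below the HER2 WT libraries with no overlap, and HER2 L755S 2 was the lower of the 2.

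By counts, NSMAF was 13.9-fold lower in pair 1 (95% exact interval 8.09 to 25.8) and at least 83.7-fold lower in pair 2, where the count of 0 was set to a limit of 3 counts in the library. SDCBP was 14.8-fold lower in pair 1 (7.29 to 35.0) and 98.1-fold lower in pair 2 (17.3 to 3910). These intervals cover counting error only. The fitted log2 fold change of edgeR, HER2 L755S over HER2 WT, was -5.02 (SE 0.85) for NSMAF and -4.58 (SE 0.71) for SDCBP. NSMAF and SDCBP passed the filter on low counts only through the HER2 WT libraries. The size of the fitted change of NSMAF depends on HER2 L755S 1, without which it was -10.90 with no count left in the line.

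The other members of the proximal cluster had other patterns. UBXN2B (58411264 to 58451501), which ends 101 kb before SDCBP, stood at 47.2 and 69.8 CPM in the wild-type libraries, against 30.6 and 37.3 CPM in the L755S libraries. That left 64.8% of the HER2 WT level in pair 1 and 53.5% in pair 2, with a log2 fold change of -0.78 (SE 0.34) and no overlap between the lines. TOX (58805418 to 59119208) had 0 counts in all 4 libraries, which allows a level of up to 0.0927 to 0.117 CPM per library (3 counts). No change of TOX could be measured at this depth.

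The near absence of SDCBP and NSMAF extended to 1 more expressed gene of the stretch between UBXN2B and RAB2A, which is 2.07 Mb long and was singled out after its values were seen. Of the 22 genes of that stretch, 4 had any count: SDCBP, NSMAF, CA8 and the long noncoding RNA gene LINC01301. CA8, which encodes a carbonic anhydrase related protein without catalytic activity, had 78 and 62 counts in the wild-type libraries and 0 counts in both HER2 L755S libraries. It was at least 23.5-fold lower in pair 1 and at least 18.3-fold lower in pair 2, each with a limit of 3 counts in the HER2 L755S library. The 5 protein-coding genes of the stretch, CYP7A1, SDCBP, NSMAF, TOX and CA8, summed to 13.1 and 15.7 CPM in the wild-type libraries and to 0.752 and 0.0389 CPM in the L755S libraries. That left 5.74% of the HER2 WT level in pair 1 and 0.248% in pair 2, while CYP7A1 and TOX had no counts in any library. LINC01301, at the far end of the stretch beside RAB2A, had 28 and 25 counts in the wild-type libraries and 17 and 8 counts in the L755S libraries. RAB2A itself, a GTPase of transport between the endoplasmic reticulum and the Golgi, stood at 117 and 142 CPM in the wild-type libraries and 83.8 and 130 CPM in the L755S libraries, which overlap. LINC01301 kept 67.2% of its HER2 WT level in pair 1 and 36.2% in pair 2, from few counts. The expressed genes with almost no reads in HER2 L755S, from the start of SDCBP to the end of CA8, thus spanned 1.73 Mb. The files hold RNA only, and the number of gene copies was not measured.

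**Figure D1:**
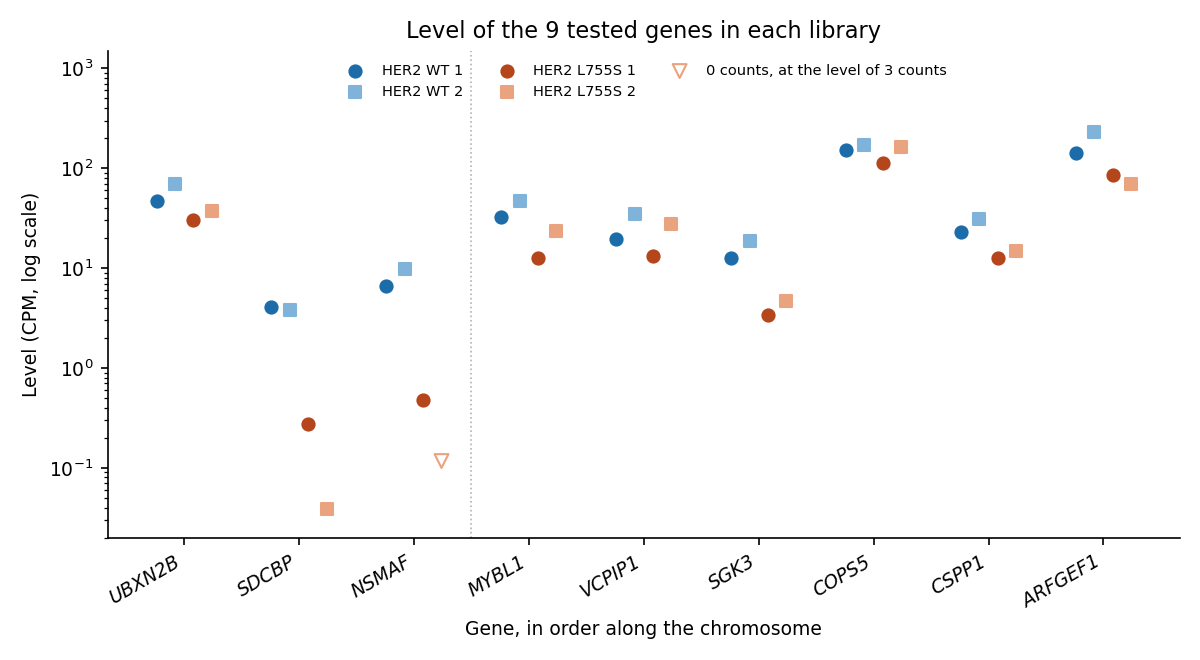
Level of the 9 tested genes (CPM, log scale) in each of the 4 libraries, with genes in order along the chromosome and a dotted line between the 2 clusters; the open triangle marks the 0 counts of NSMAF in HER2 L755S 2, drawn at the level of 3 counts. SDCBP and NSMAF lie more than 10-fold lower in both HER2 L755S libraries, SGK3 lies about 4-fold lower, and the libraries of COPS5 and VCPIP1 overlap.

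In the distal cluster SGK3 had the largest difference. SGK3 (ENSG00000104205, 66667596 to 66862022) stood at 12.6 and 18.7 CPM in the wild-type libraries, against 3.38 and 4.67 CPM in the L755S libraries. The lines did not overlap, and 26.9% of the HER2 WT level was left in pair 1 and 25.0% in pair 2. On the log2 scale the fitted difference was -1.96 (SE 0.40), and the pairs gave -1.89 and -2.00. Of the 9 tested genes SGK3 had the closest agreement between the pairs.

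Part of the SGK3 locus is also annotated as the readthrough gene C8orf44-SGK3 and as C8orf44, whose 17950 bases lie within SGK3. The readthrough gene was given 0 and 21.88 counts in the wild-type libraries and 3.51 and 0 counts in the L755S libraries, against 99.0 to 543.54 counts for SGK3. Summing both genes gave differences of -1.84 in pair 1 and -2.05 in pair 2, so the division of reads between them hardly moved the value of SGK3. C8orf44 had 115 and 79.41 counts in the wild-type libraries and 47.49 and 70.0 counts in the L755S libraries, with differences of -1.14 and 0.00 in pairs 1 and 2. The strong and even difference of SGK3 was therefore not seen in the gene that shares its start.

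VCPIP1, which starts 378 bases from SGK3 on the other strand, encodes a deubiquitinase that works with VCP/p97. It stood at 19.7 and 34.5 CPM in the wild-type libraries, against 13.1 and 27.5 CPM in the L755S libraries, and the lines overlapped. Its log2 fold change was -0.42 (SE 0.43), and turned to 0.063 without HER2 WT 2 and to 0.021 without HER2 L755S 1. SGK3 and VCPIP1 thus differed by 1.30 in pair 1 and 1.67 in pair 2 in how far HER2 L755S lay from HER2 WT, although their starts adjoin.

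MYBL1 (66562175 to 66614247), a transcription factor of the MYB family, stood at 32.4 and 47.3 CPM in the wild-type libraries, against 12.8 and 23.3 CPM in the L755S libraries. Its libraries did not overlap between the lines, and its log2 fold change was -1.15 (SE 0.39; pairs -1.35 and -1.02).

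ARFGEF1 (67173511 to 67343677), the exchange factor of ARF GTPases, was among the most abundant of the 10 genes. Its level was 143 and 231 CPM in the wild-type libraries and 84.8 and 69.0 CPM in the L755S libraries, with a log2 fold change of -1.28 (SE 0.34). The difference was -0.76 in pair 1 and -1.74 in pair 2, so its size rested more on the number 2 libraries, and ranged from -1.59 to -0.89 when 1 library was left out.

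CSPP1 (67062426 to 67196263), the centrosome protein gene between COPS5 and ARFGEF1, stood at 22.7 and 31.1 CPM in the wild-type libraries, against 12.7 and 14.8 CPM in the L755S libraries. Its log2 fold change was -0.97 (SE 0.35; pairs -0.84 and -1.07). COPS5 (67043079 to 67083783), which overlaps CSPP1, stood at 154 and 173 CPM in the wild-type libraries, against 112 and 162 CPM in the L755S libraries. For COPS5 the lines overlapped, and the log2 fold change of -0.25 (SE 0.32; pairs -0.46 and -0.09) was within its error.

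All 9 tested genes had lower values in HER2 L755S cells in both pairs, against 32.1% of all tested genes. For 7 of them both HER2 L755S libraries lay below both HER2 WT libraries, against 19.3% of all tested genes. The quasi-likelihood test of edgeR, with Benjamini-Hochberg adjustment over all tested genes, called 3 of the 9 lower at an adjusted p under 0.05 (SGK3, NSMAF and SDCBP), where 0.949% of all tested genes were called lower. With the library number as a block, edgeR called 7 of the 9 lower, adding MYBL1, CSPP1, ARFGEF1 and UBXN2B. That fit called 1018 of all tested genes lower. As the genes were chosen with these differences known, nothing is read from these shares and counts. SGK3 was no longer called without HER2 WT 2 (edgeR, adjusted p = 0.072) or without HER2 L755S 1 (adjusted p = 0.060), and ARFGEF1 was called without HER2 WT 1 (adjusted p = 0.026).

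Levels of different genes were compared on the TPM scale, which accounts for transcript length. In HER2 WT cells COPS5 was highest (158 and 171 TPM in HER2 WT 1 and 2), followed by ARFGEF1 (49.96 and 59.3 TPM), and neither overlapped with its neighbour in that order. Then came UBXN2B (18.8 and 24.1 TPM), MYBL1 (12.1 and 19.9 TPM), CSPP1 (8.26 and 13.2 TPM), SGK3 (4.68 and 9.72 TPM), NSMAF (2.62 and 5.59 TPM), VCPIP1 (2.68 and 4.5 TPM) and SDCBP (3.23 and 3.40 TPM), of which each overlapped with the next. Within each HER2 WT library UBXN2B, MYBL1, CSPP1 and SGK3 nevertheless stood in that order. In HER2 L755S cells the first 3 places were the same, with 111 and 127 TPM for COPS5, 28.99 and 24.2 TPM for ARFGEF1 and 11.1 and 8.56 TPM for UBXN2B. SGK3, at 2.10 and 1.23 TPM, stood above VCPIP1 (1.73 and 2.85 TPM) in HER2 L755S 1 and below it in HER2 L755S 2. NSMAF and SDCBP were last of the expressed genes, at 0.440 and 0 TPM and at 0.230 and 0.0400 TPM.

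The TPM values also gave other sizes for some differences, and RSEM estimates the mean transcript length of a gene anew in each library. The length of SGK3 was estimated at 3777, 2663, 2299 and 4055 bases in HER2 WT 1, HER2 WT 2, HER2 L755S 1 and HER2 L755S 2. On the TPM scale the difference of SGK3 was -1.16 in pair 1 and -2.98 in pair 2, so the pairs that were alike in CPM differed by 1.83 in TPM. MYBL1 moved from -1.02 in CPM to -1.72 in TPM in pair 2, where its length ratio was 1.27, and UBXN2B from -0.902 to -1.496. ARFGEF1 moved the other way in pair 2, from -1.74 in CPM to -1.29 in TPM, with a length ratio of 0.599. VCPIP1 had the same length of 9942 bases in all libraries, and its pair 2 difference still moved from -0.33 to -0.66. That of COPS5, with a length ratio of 1.00, moved from -0.09 to -0.43, so the length of a gene does not account for all of these shifts. Genes elsewhere could move too. AKT1 on chromosome 14 was at 0.04 in CPM in pair 2, but at 189 TPM in HER2 WT 2 and 119 TPM in HER2 L755S 2. A TPM shift common to a whole library was not tested. Each of the 8 genes with reads in all libraries was lower in HER2 L755S in both pairs on both scales.

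**Figure D2:**
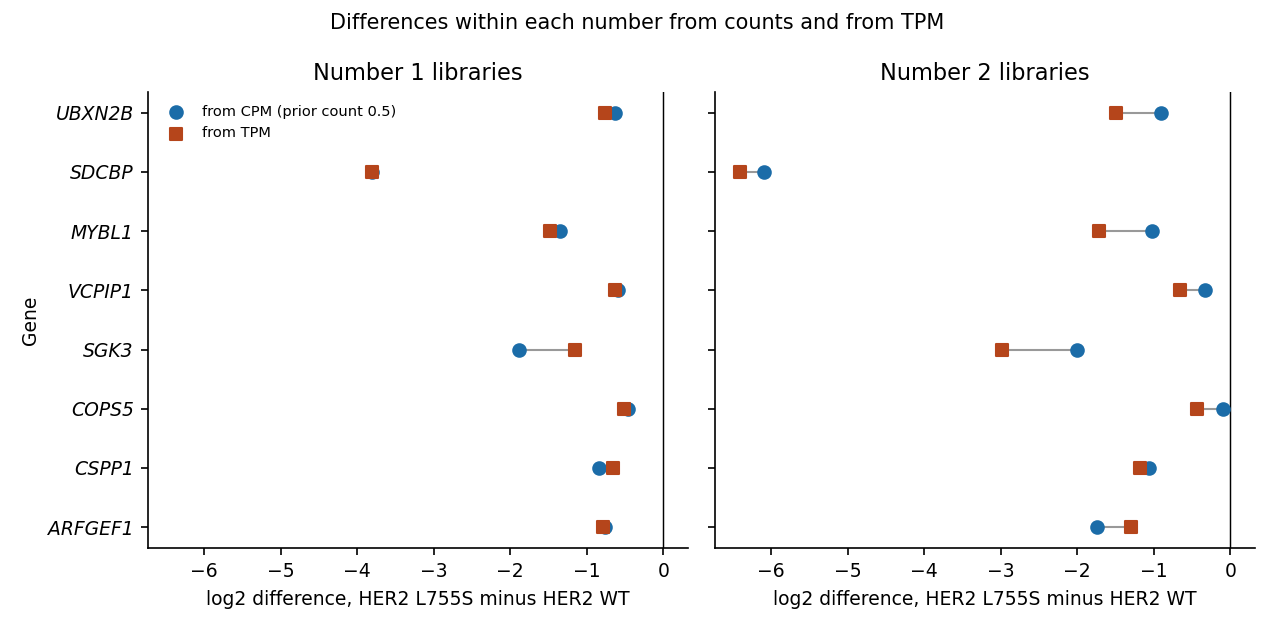
Differences between the lines (log2, HER2 L755S minus HER2 WT) within the number 1 and number 2 libraries, from CPM (circles) and from TPM (squares), for the 8 genes with reads in all libraries. SGK3 is at -1.89 and -2.00 from CPM but at -1.16 and -2.98 from TPM, and all points lie below 0.

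To see whether lower values went beyond the chosen genes, the other genes of the interval from UBXN2B to ARFGEF1 (8.93 Mb) were examined. It holds 122 genes of the tables, of which 35 are protein-coding and 27 were tested. Counted in what follows are the 16 protein-coding genes with at least 5 CPM on average, 7 of them chosen genes and 9 others. NSMAF and SDCBP are not among the 16, since they averaged less than 5 CPM. Of the 16 genes, 15 had a negative log2 fold change, and the median was -0.73 (pairs -0.65 and -0.78). Of the 9 genes that were not chosen, 8 were negative, with a median of -0.55 (pairs -0.48 and -0.44). Over all chromosomes 46.1% of counted genes were negative, with a median of 0.03. On chromosomes other than 1, 8 and 11, the share of counted genes was 40.0% and the median was 0.08. Those 3 chromosomes are set aside because 72.8%, 78.2% and 67.4% of their counted genes were negative.

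The 5 lowest of the 16 were GGH, SGK3, ARFGEF1, MYBL1 and PDE7A. GGH, the folate-processing gamma-glutamyl hydrolase gene, fell from 30.2 and 24.9 CPM in HER2 WT to 3.80 and 3.27 CPM in HER2 L755S libraries (log2 -2.96, SE 0.37, pairs -2.99 and -2.92, edgeR, adjusted p = 0.0039). PDE7A, a cAMP phosphodiesterase gene, had a log2 fold change of -1.08 (SE 0.37) and did not pass. The 5 highest were ASPH, YTHDF3, COPS5, RRS1 and RAB2A. ASPH, which encodes aspartate beta-hydroxylase, was the only 1 of the 16 with a positive value, at 171 and 195 CPM in the wild-type libraries and 290 and 313 CPM in the L755S libraries (log2 0.72, SE 0.29, pairs 0.76 and 0.69), and did not pass. The RNA-methylation reader gene YTHDF3, the ribosome biogenesis gene RRS1 and RAB2A stood at -0.25, -0.26 and -0.28. Among counted genes between the 2 clusters the values thus ran from -2.96 for GGH to 0.72 for ASPH. Near-neighbours could be far apart, such as GGH and YTHDF3, whose starts are 0.153 Mb apart. TTPA, which lies between GGH and YTHDF3 and is not counted, was also low, at -2.55 (pairs -1.64 and -4.65). It was scarcely expressed, at 0.463 and 0.413 CPM in the wild-type libraries.

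Lower values continued outside the interval. The nearest counted genes before it were FAM110B at -0.40, the phosphatase gene IMPAD1 at -0.06 and the ribosomal protein gene RPS20 at -0.08. The nearest after it were the nuclear receptor coactivator gene NCOA2 at -0.79, the translocon gene TRAM1 at -0.88 and LACTB2 at -0.69. None of these 6 passed the test. In the 5 Mb before the interval all 9 counted genes were negative, with a median of -0.31 (pairs -0.38 and -0.28), and in the 5 Mb after it the 3 counted genes had a median of -0.79. LYPLA1, which encodes a depalmitoylating enzyme, was the lowest of the 9, at -1.08 (pairs -1.10 and -1.06), below all 3 genes after the interval.

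**Figure D3:**
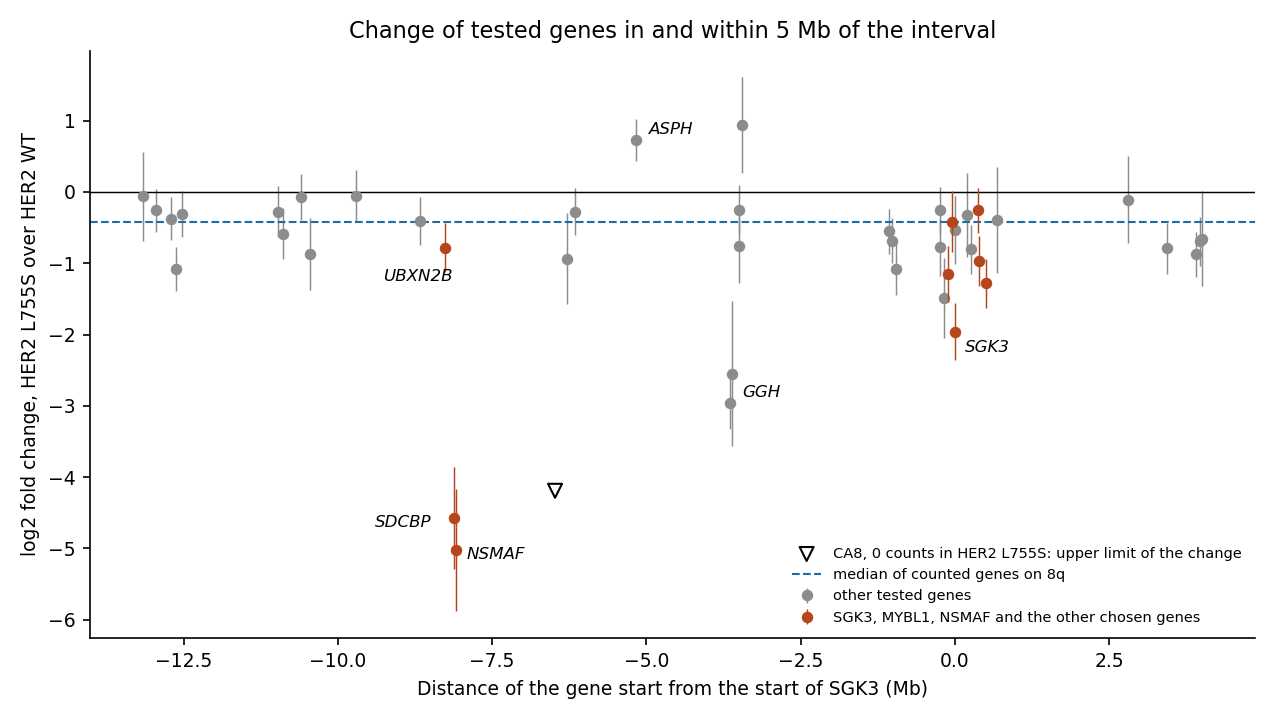
Log2 fold change of each tested gene (HER2 L755S over HER2 WT, bars are SE) against the distance of its start from that of SGK3, with chosen genes in orange and others in grey; the triangle is the limit set by the 0 counts of CA8, and the dashed line is the median of counted 8q genes, -0.42. Most genes lie between 0 and -1.5, while SDCBP, NSMAF, CA8, GGH and the scarcely expressed TTPA (-2.55) are the lowest, and ASPH (0.72) and a scarcely expressed long noncoding RNA gene (0.93, pairs -0.22 and 1.67) are above 0.

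The whole long arm was lower. Of 234 counted genes on 8q, 207 were negative, with a median of -0.42 (quartiles -0.66 and -0.24, pairs -0.45 and -0.37), while on the short arm, 8p, 66 of 115 were negative, with a median of -0.07. On 8q outside the interval and its flanks the median was -0.41 over 206 genes. Against this arm, COPS5 and VCPIP1 were not low: 71.4% and 50.4% of counted 8q genes were at or below their values. UBXN2B stood at 16.2%, CSPP1 at 10.3%, MYBL1 at 5.98%, ARFGEF1 at 4.70% and SGK3 at 1.71%. No counted 8q gene was as low as SDCBP or NSMAF, which average less than 5 CPM and are not counted themselves. CA8, tested but not counted either, passed the filter only through the HER2 WT libraries and had 0 counts in both HER2 L755S libraries. Its fitted value therefore gives no size to rank. By counts it was at least 23.5-fold lower in pair 1 and at least 18.3-fold lower in pair 2. In windows of 5 Mb with at least 5 counted genes along chromosome 8, all 11 counted genes of the window with the distal cluster were negative, with a median of -0.78 (pairs -0.72 and -1.01), but 6 of the 11 are chosen genes. The median of the other 5 genes, computed after the data were seen, was -0.69 (pairs -0.68 and -0.65). Without the chosen genes this was the second lowest of 24 windows, after one on 8p with a median of -0.74 over 19 genes. The window with the proximal cluster had a median of -0.34 over 6 genes, and of -0.28 over the 5 that were not chosen. Genes are not replicates, and these medians carry no test.

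**Figure D4:**
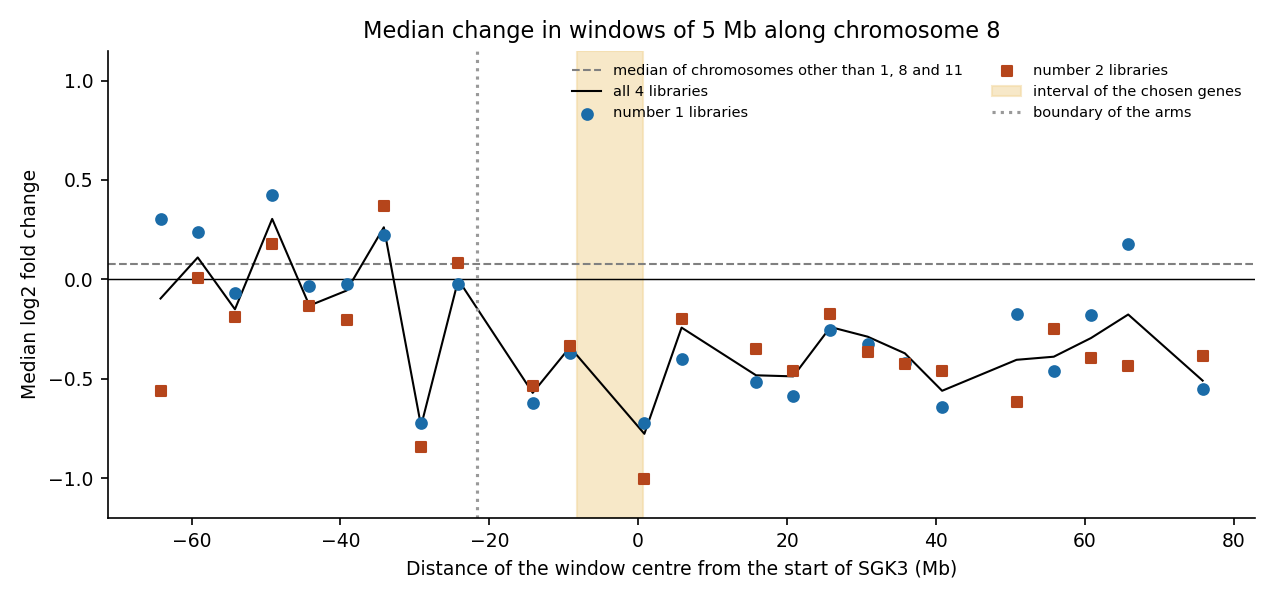
Median log2 fold change (HER2 L755S over HER2 WT) of counted genes in windows of 5 Mb along chromosome 8, against the distance of the window centre from the start of SGK3; the line is all 4 libraries, and circles and squares are the number 1 and number 2 libraries. On the long arm, right of the dotted line, all windows have a median below 0 over the 4 libraries, and that of SGK3 is at -0.78, where 6 of 11 genes are chosen ones, and at -0.69 without them.

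Each gene was also set against its neighbours, the other counted genes with starts within 2 Mb. SGK3 was 1.23 below the median of its 10 neighbours (local difference -1.23; -1.19 in pair 1 and -1.17 in pair 2), and none of them was lower. NSMAF was at -4.68 and SDCBP at -4.23 relative to 4 neighbours each. The limit of 5 CPM on average kept SDCBP, NSMAF and CA8 out of the neighbours. These differences thus do not set NSMAF or SDCBP apart from the other genes of their stretch. ARFGEF1 was at -0.55 relative to 10 neighbours, with -0.06 in pair 1 and -0.91 in pair 2, so its distance from them was near 0 in the number 1 libraries. MYBL1 was at -0.41 (pairs -0.64 and -0.19), and CSPP1 at -0.24 (pairs -0.14 and -0.24). UBXN2B was at -0.55 relative to 2 neighbours (pairs -0.39 and -0.66). VCPIP1 and COPS5 were above their neighbours, by 0.45 (pairs 0.15 and 0.69) and 0.62 (pairs 0.28 and 0.92). With these windows MYBL1, CSPP1, ARFGEF1, UBXN2B, VCPIP1 and COPS5 thus lay within 1 log2 unit of their neighbours in both pairs. SGK3, NSMAF and SDCBP lay further below theirs in both. With windows of 1 Mb SGK3 was at -1.22 in pair 1 and -0.98 in pair 2, so its place beyond 1 unit depended on the window. In the distal cluster the neighbours include others of the 10 genes.

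A comparison that did not enter the choice of the genes was that of number 2 with number 1 libraries, with the line held fixed. VCPIP1 was higher in number 2 libraries by 0.94 (SE 0.20, edgeR, adjusted p = 0.0068) and MYBL1 by 0.70 (SE 0.20, adjusted p = 0.023), each in both lines. These were 2 of 9 tested genes, where 18.2% of all tested genes were called in this comparison. SGK3 stood at 0.52 (SE 0.24, adjusted p = 0.15), UBXN2B at 0.43 and ARFGEF1 at 0.20, and did not pass. For VCPIP1 this difference between numbers was larger than that between the lines, and for SGK3 it was smaller.

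Relatives and partners of the 10 genes were then examined wherever they lie in the genome, in 11 lists drawn by known function. Of 111 tested genes that were not among the 10, edgeR called 0 in either direction at an adjusted p under 0.05, with 8 at an unadjusted p under 0.05. Of all 16538 tested genes, 1.69% were called in either direction. DESeq2 called SGK2, UBXN8 and CYTH3 higher and NDRG1 lower, and limma-voom called 0. Of all tested genes DESeq2 called 266 higher and 292 lower. With the library number as a block, edgeR called MYB, FOXM1, NDRG1, SMPD3, OTUD7B and UBXN1 lower. It then called SGK2, CD63, SDC1, UBXN8 and CYTH3 higher. That fit called 1018 of all tested genes lower and 725 higher, so nothing is read from these calls about the relatives and partners. In the lists below, passing refers to the edgeR fit without that block. The median of the 111 was 0.00, as it was over all tested genes. Of the 111 genes, 54 were negative.

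Among kinases, SGK2 stood at 2.66 and 1.89 CPM in the wild-type libraries, against 7.35 and 7.56 CPM in the L755S libraries, a log2 fold change of 1.71 (SE 0.42, edgeR, adjusted p = 0.075) opposite to that of SGK3. Of 13 tested kinases and activators around SGK3 5 were negative, with a median of 0.06. NDRG1, whose protein is phosphorylated by SGK kinases and whose gene also lies on chromosome 8, stood at 5.84 and 5.58 CPM in the wild-type libraries, against 2.05 and 0.779 CPM in the L755S libraries (log2 -2.00, SE 0.52, edgeR, adjusted p = 0.093). Neither SGK2 nor NDRG1 passed in edgeR without the number as a block, and both passed with it.

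In the MYB list, MYB on chromosome 6 had a log2 fold change of -1.19 (SE 0.37; pairs -1.26 and -1.14), beside the -1.15 of MYBL1. The mitotic factor gene FOXM1 stood at -0.70 (pairs -0.82 and -0.53), and 6 of the 8 tested relatives were negative. None of them passed.

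Around NSMAF, the neutral sphingomyelinase gene SMPD3 had a log2 fold change of -0.998 (SE 0.39) and the TNF receptor adaptor gene TRADD one of 0.72, and neither passed. Of 7 other tested genes of the BEACH family, which share a domain with NSMAF, 6 were negative, with a median of -0.20. With NSMAF included, the list median was 0.19 in pair 1 and -0.59 in pair 2, so its sign differed between the pairs. None of the 7 passed. NBEA was the lowest of them, at -0.84 (pairs -0.21 and -1.23). In the syntenin list, SDCBP2, the paralog of SDCBP, stood at 1.54 and 1.69 CPM in the wild-type libraries and 0.650 and 0.545 CPM in the L755S libraries, and the exosome marker gene CD63 had a log2 fold change of 0.73 (SE 0.30). None of the 9 other tested genes of that list passed.

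The other 17 tested genes of the COP9 signalosome and of neddylation ranged from -0.09 to 0.36, with a median of 0.10. COPS5, at -0.25, was thus the lowest of this list in the fit, though within its error. In pair 2 it was not, as COPS3 stood at -0.12 and COPS5 at -0.09. Among 17 cofactors of VCP other than UBXN2B and VCPIP1 the median was 0.01, and UBXN8, which lies on chromosome 8 as well, stood at 1.17 (SE 0.33, edgeR, adjusted p = 0.13). Among 12 ARF genes and exchange factors other than ARFGEF1 the median was 0.10, and CYTH3 stood at 1.09 (SE 0.30, edgeR, adjusted p = 0.12). The 8 tested ciliary partners of CSPP1 had a median of 0.04, with NPHP4 at -0.54. Of the TOX relatives, TOX4 was the most abundant, at 92.4 to 117 CPM, and all 3 tested ones were negative, from -0.66 for TOX2 to -0.17 for TOX3.

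The genes with the most similar pattern over the 4 libraries were found by the distance between centred log2 CPM values. For SGK3 they were TMEM26 on chromosome 10 (distance 0.018), ITGB8 on chromosome 7 (0.13) and KCNQ3 on chromosome 8 (0.14). For MYBL1 they were COMMD8, PRR11 and DDR2 on chromosomes 4, 17 and 1 (0.027, 0.11 and 0.14). For NSMAF they were ME3 and ASRGL1, both on chromosome 11, and CTD-2554C21.3 (0.72, 0.74 and 1.01), all with at most 1 count in HER2 L755S 2. The search left out the 10 genes themselves, and only 18 other tested genes lie in the interval. That none of these 9 genes lay there therefore says little about the locus. Over 4 libraries a small distance is a weak measure of likeness.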

How the data were processed

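RNA of 4 libraries, 2 per line, had been poly(A)-selected from 250 ng of total RNA and sequenced after TruSeq preparation, per the labels' protocols. The deposited tables hold expected counts, which are estimated counts per gene, TPM values and gene lengths averaged over transcripts, all made by the authors with RSEM per the file headers. STAR, edgeR and GRCh38 are named in the submitters' processing notes, with no role or version. The annotation release and the strand setting are not given in the sources used here. Of the tables, 2 (both of number 2) carry the word merged in their names, without saying what was merged. Between 9.53% and 11.5% of genes had a count that was not whole.

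Expected counts were rounded. Of 60675 genes, 16538 passed filterByExpr of edgeR 4.0.16 (R 4.3.3). After TMM scaling (factors 0.937 to 1.04) glmQLFit and glmQLFTest (two-sided, without the number as a term) compared the lines, with Benjamini-Hochberg adjustment over all tested genes and a threshold of 0.05. Number 2 was compared with number 1 in a model with line and number. Pair differences use log2 CPM after adding a prior count (0.5), which printed CPM values lack. Positions are from GENCODE 29, with 16426 tested genes matched by Ensembl identifier, and the arms were split at 45 Mb. Both fits were tested on simulated data. The genes, lists and tests were chosen with earlier results of these data known. Named besides the 10 genes are up to 4 genes per list by adjusted p, the 5 lowest and 5 highest counted genes of the interval, the 3 nearest on each side, and the 3 most similar genes for SGK3, MYBL1 and NSMAF. CA8, LINC01301, CYP7A1, C8orf44, AKT1, LYPLA1, TTPA and COPS3 lie outside these rules and were named after their values were seen. Alternatives were size factors of DESeq2, no scaling, TMM without chromosomes 1, 8 and 11, DESeq2 1.42.0, limma-voom (limma 3.58.1), limma on log2(TPM + 1), no filter, at least 50 counts in 2 libraries, the number as a block, other windows and leaving out each library.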

Additional observations from a re-analysis of the deposited data

How the results depend on the processing

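The log2 fold changes of SGK3, MYBL1, NSMAF, COPS5, CSPP1, ARFGEF1, SDCBP and UBXN2B stayed negative in all 13 alternatives, and that of VCPIP1 (-0.42) ranged from -1.05 to 0.063 when 1 library was left out. SDCBP was called in every alternative that kept all 4 libraries. It was chosen with this comparison known and passed the filter only through the HER2 WT libraries, so these calls support nothing further. SGK3 lost its call with limma on log2(TPM + 1) (adjusted p = 0.11) besides the 2 left-out libraries given above, and NSMAF with DESeq2 (adjusted p = 0.29). ARFGEF1 was called with DESeq2 (adjusted p = 0.021) and with no filter (adjusted p = 0.014). Leaving out 1 library gave 2 to 4 called members, 184 to 328 lower and 160 to 220 higher genes among all tested, and 4 to 6 called genes in the interval, against 3, 157, 122 and 5. The spread of the line left with 1 library was then taken from the other. The interval median ranged from -0.86 to -0.57 and the share of its genes with a negative value from 81.25% to 93.75% in those fits, and the median was -0.55 without the chosen genes. Among all tested genes, 292 lower and 266 higher genes were called by DESeq2, 431 and 328 with no filter, and 63 higher genes by limma on log2(TPM + 1). The local difference of SGK3 (-1.23) was -1.09 with windows of 1 Mb (pairs -1.22 and -0.98) and -1.18 with 5 Mb on each side. The labels do not say what the replicate number stands for. Same-numbered libraries deviated together from their line means (r = 0.649 over 11473 genes). With the number as a block 7 of the 9 tested members were called lower, as were 12 genes of the interval and 1018 of all tested genes, with 725 called higher, and 6 lower and 5 higher of the 111 relatives and partners. Depth limits NSMAF, SDCBP and CA8, of which 0 to 14 counts were left in a HER2 L755S library.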
